A study of Mus musculus with 7 samples.

Results

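The genes described here encode 39 regulators of heterochromatin and of Polycomb repression, the enzymes and readers that keep genes silent at the nuclear periphery and elsewhere. They form a list of 39 gene names, each of which matched exactly 1 of the 22738 gene rows in every table. RNA sequencing measured them in explants of the epicardium, the cell layer that covers the heart, taken from mice at E12.5. Ventricles were placed on a gelatin coat so that epicardial cells could crawl out. The hearts were lifted off after 48 hours, and the cells left behind grew for 72 hours more before RNA was taken. There were 4 wild type libraries and 3 Lmnb1-/- libraries. Lmnb1 encodes lamin B1, a filament protein of the nuclear lamina. Both groups were of a mix of the strains C57BL/6, 129S4Sv/Jae and 129S6/SvEvTac, of the same age and without treatment, and the kind of Lmnb1 allele is not given in the sources used here. The series asks what lamin B1 contributes to the timing of epicardial migration, and the comparison below asks whether its loss went with a change in the RNA of the silencing machinery.

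Heterochromatin is marked by methylation of histone H3 at lysine 9 (H3K9), which HP1 proteins read, and by DNA methylation. Polycomb repression uses a pair of complexes, PRC2, which methylates H3 at lysine 27 (H3K27), and PRC1, which reads that mark and ubiquitinates histone H2A. Much heterochromatin lies against the lamina, where the lamin B receptor binds HP1.

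Lmnb1 itself checked the labels, with raw counts of 463, 185, 488 and 567 in the wild type libraries and of 4, 2 and 4 in the Lmnb1-/- libraries, each in replicate order as in all such lists below. Total counts ran from 1024898 in wild type replicate 2 to 3066936 in Lmnb1-/- replicate 1. By Xist and Y-linked genes, the female libraries were wild type replicates 1 and 3, and the other 5 were male. The 18 epicardial markers were all detected, with summed levels of 3938 to 5074 CPM (counts scaled to the TMM-adjusted total of each library) in wild type and 3509 to 4336 CPM in Lmnb1-/- libraries. Of other cell types, heart muscle markers summed to 559 to 921 CPM in wild type and 557 to 728 CPM in Lmnb1-/- libraries, with Myh7 and Actn2 at 0 counts in all 7. That sum came mostly from Myl7, at 412 ± 146 CPM (SD, n = 4) against 385 ± 76.4 CPM (SD, n = 3), and from Tnnt2 and Tnni1, so the list was not absent. Endothelial markers summed to 63.1 to 88.9 and 65.8 to 89.7 CPM, with Pecam1 and Cdh5 at 21 and 16 counts over all libraries and Flt1 and Tek at 629 and 323. Kdr and Egfl7 were higher in every Lmnb1-/- library than in any wild type library. Their log2 fold changes were 1.40 and 0.57 (adjusted p = 0.122 and 0.474 by edgeR). Flt1 and Tek overlapped between the groups, at -0.11 and -0.50 (adjusted p = 0.909 and 0.607 by edgeR). Thus 2 of the 4 tested lay apart on the higher side, where 6.36% of all tested genes lay. Macrophage and blood markers summed to 106 to 535 and 62.1 to 852 CPM, and fibroblast markers to 12409 to 25615 and 10071 to 12125 CPM. No gene of these 4 lists or of the epicardial list passed the test. All 12 tested smooth muscle markers had log2 fold changes below 0, as did 5647 of 10775 tested genes. Of the 12, 5 passed as lower, where 0.343% of all tested genes did. The smooth muscle list summed to 10930 to 12263 CPM in wild type and 8169 to 8906 CPM in Lmnb1-/- libraries. In bulk RNA, fewer cells of a type and less RNA per cell cannot be told apart. The part of these shifts, and of the unequal sexes, in the values below was not tested except where male libraries are given alone.

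None of the silencing regulators passed the test. Of the 39, 36 had enough counts to be tested, and 0 of 36 had an adjusted p under 0.05 in the quasi-likelihood test of edgeR (adjusted by Benjamini-Hochberg over all genes), where 76 of 10775 tested genes (0.705%) did. Of those 76, 39 were higher (0.362%) and 37 lower (0.343%) in Lmnb1-/- explants, a split that was 47 and 26 with library totals in place of TMM scaling, 75 and 100 with DESeq2, 11 and 27 with a sex term in the fit, and 29 and 66 in male libraries alone. DESeq2 also called 0 of 36, but gave no adjusted p for some. Those were Cbx3, Suv39h2, Cbx2, Cbx8, Phc1, Kdm6b and Hdac1, which it therefore could not call. At an unadjusted p under 0.05 there were 9 of 36 members, 5 higher and 4 lower, which is 25% against 13.6% of all tested genes. The 36 log2 fold changes (Lmnb1-/- over wild type) ran from -0.47 to 0.48, with 19 above 0, 17 below and a median of 0.0096, beside a median of -0.015 over all tested genes. That span held 86.6% of all tested genes. Members were more abundant than most genes, with a median level of 69.2 CPM against 35.8 CPM, so their spread is not directly comparable.

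The intervals, all from the fit without a sex term, give the sizes of change that this fit could resolve. The 95% interval lay within 2-fold in either direction for 35 of 36 members, or 97.2%, against 80.8% of all tested genes. It lay within 1.5-fold for 18 of 36, or 50%, against 44.9%. The exception at 2-fold was Kdm6b, an H3K27 demethylase, whose interval ran from -1.65 to 0.70. With sex as a covariate, the log2 fold change was 0.77 for Ezh2 (SE 0.21) and 0.60 for Suv39h1 (SE 0.23). Without it the SE of both was 0.19, while that of Kdm6a went the other way, from 0.20 to 0.18 with sex. Intervals with the sex term were not counted. Cbx3 and Hdac1 entered with only a small part of their counts, as given below. The CPM ranges of wild type and Lmnb1-/- libraries lay apart for 7 of the 36 (19.4%, against 13.3% of all tested genes). Suv39h1, Mbd2, Eed and Hdac2 were the 4 on the higher side, where 6.36% of all tested genes lay, and Cbx6, Ncor1 and Atrx the 3 on the lower, where 6.92% lay. Suv39h1 was all but a tie, with 29.17 CPM in the lowest Lmnb1-/- library against 29.14 CPM in the highest wild type library.

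**Figure D1:**
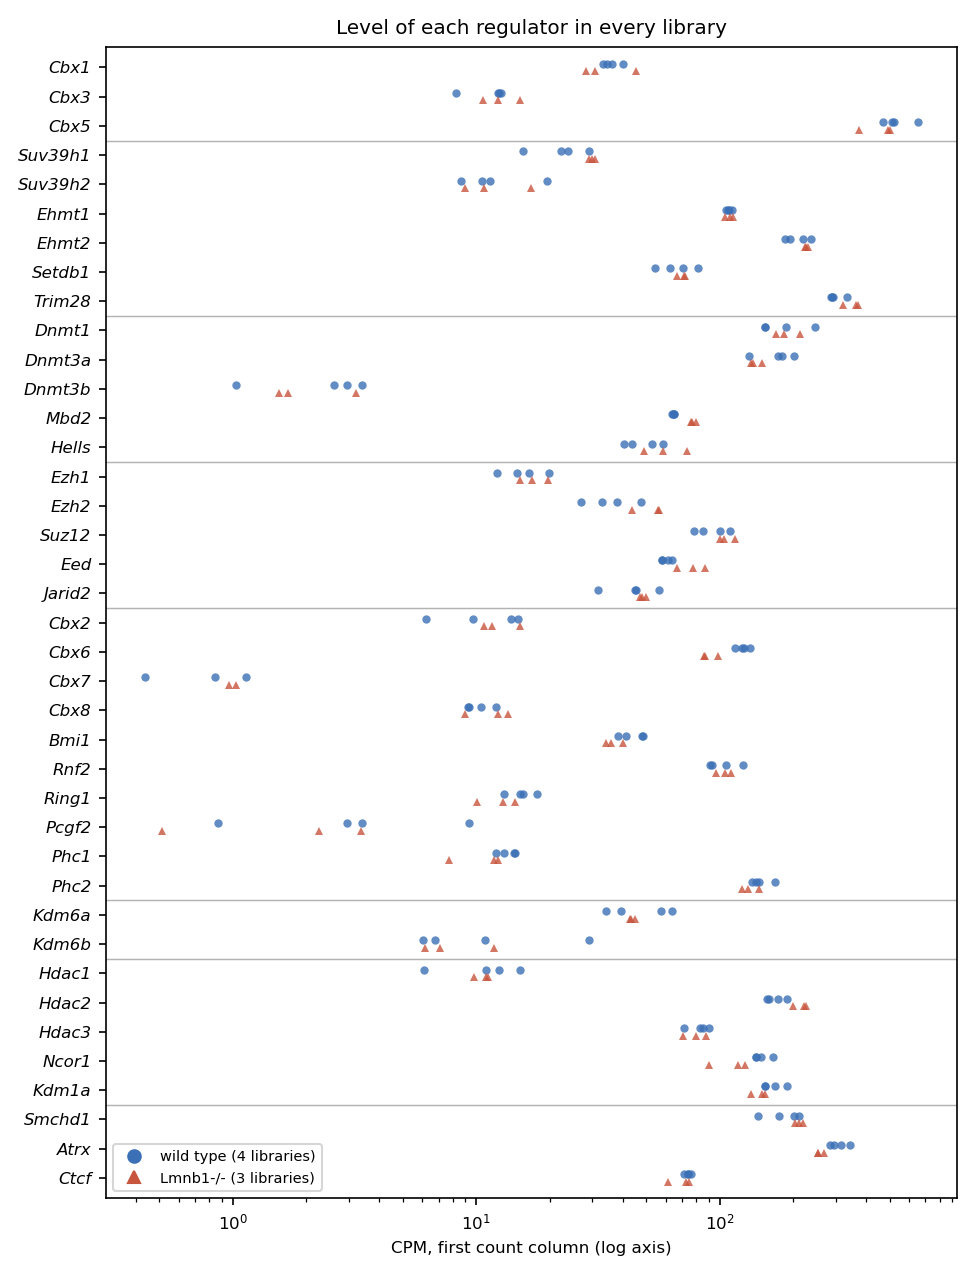
CPM of each of the 39 regulators (log axis) in the 4 wild type libraries (circles) and 3 Lmnb1-/- libraries (triangles), grouped by role from HP1 readers at the top to Smchd1, Atrx and Ctcf at the bottom. Zeros, which occurred for Cbx7 in 1 library of each group, cannot be drawn on this axis, and most rows show overlapping groups, with Cbx6 and Mbd2 among the exceptions.

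**Figure D2:**
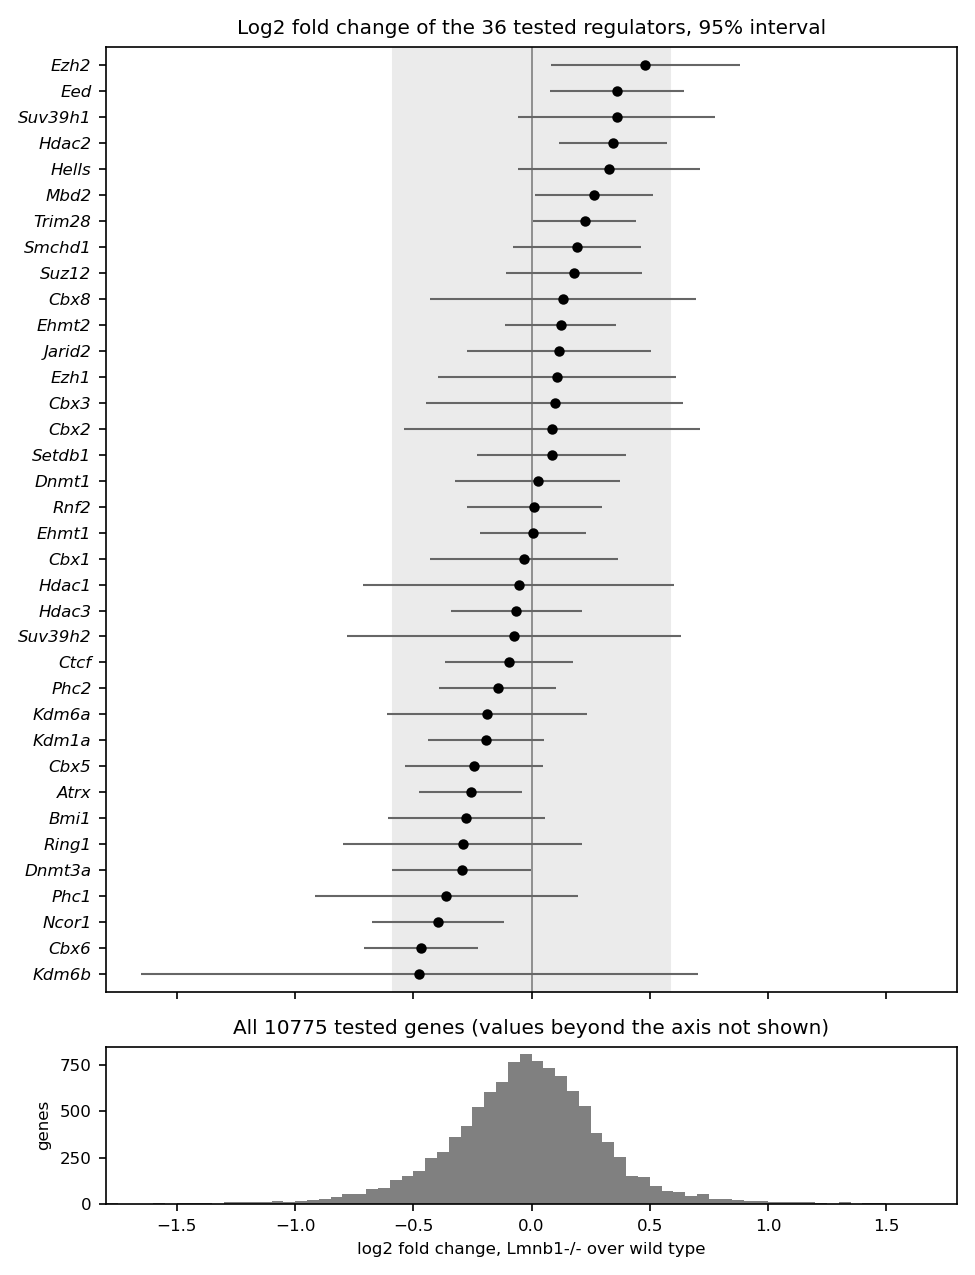
Top, log2 fold change of the 36 tested regulators with its 95% interval, ordered by size, with the band of 1.5-fold in grey. Bottom, the same quantity over all 10775 tested genes, whose bulk covers the regulators' span of -0.47 to 0.48.

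HP1 readers bind methylated H3K9 and compact the chromatin there. Cbx5, encoding HP1-alpha, had the highest CPM of the 39. Its levels were 655, 470.1, 511 and 521 CPM in wild type and 503, 492 and 373 CPM in Lmnb1-/- libraries. The groups overlapped, with wild type replicate 1 highest and Lmnb1-/- replicate 3 lowest, and the log2 fold change was -0.24 (SE 0.14, adjusted p = 0.462 by edgeR), or -0.12 within male libraries. Cbx1, encoding HP1-beta, was at 34.4, 33.1, 39.9 and 36.3 CPM in wild type and 45.3, 30.8 and 28.3 CPM in Lmnb1-/- libraries. Its log2 fold change was -0.03 (SE 0.18, 95% interval -0.43 to 0.36) and turned to 0.017 within male libraries. Per kilobase of exon, Cbx5 stood at 59.9 ± 8.89 CPM per kb in wild type (SD, n = 4) and Cbx1 at 8.40 ± 0.698 CPM per kb, an order that held in Lmnb1-/- explants at 50.6 ± 8.03 and 8.15 ± 2.15 CPM per kb (SD, n = 3). On this measure Trim28 was above Cbx5, at 72.2 ± 5.15 CPM per kb in wild type and 84.5 ± 6.30 in Lmnb1-/- explants.

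Cbx3, encoding HP1-gamma, could not be read from the same counts. Each table holds 2 unnamed count columns, and all values here come from the first of them unless stated. In the first column Cbx3 had 12.6, 8.27, 12.4 and 12.2 CPM in wild type and 10.6, 15.1 and 12.3 CPM in Lmnb1-/- libraries. The second column held 94.7% of its counts, from 166 in wild type replicate 2 to 717 in Lmnb1-/- replicate 1. By symbols built on the gene's own name, the mouse annotation lists 8 Cbx3 pseudogenes. It lists none in that form for Hdac1, another gene counted mostly in the second column. Pseudogenes under other names were not searched for. What sets the columns apart is not given in the sources used here, so the level of Cbx3 is uncertain. With both columns added, Cbx3 was at 202, 147, 161 and 188 CPM in wild type and 198, 208 and 186 CPM in Lmnb1-/- libraries. These ranges overlapped, and its log2 fold change was 0.17 (SE 0.12, adjusted p = 0.568 by edgeR). On that sum Cbx3 was at 29.1 ± 4.15 CPM per kb in wild type (SD, n = 4), above Cbx1 at 6.88 ± 0.592 and below Cbx5 at 48.9 ± 7.26 CPM per kb.

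**Figure D3:**
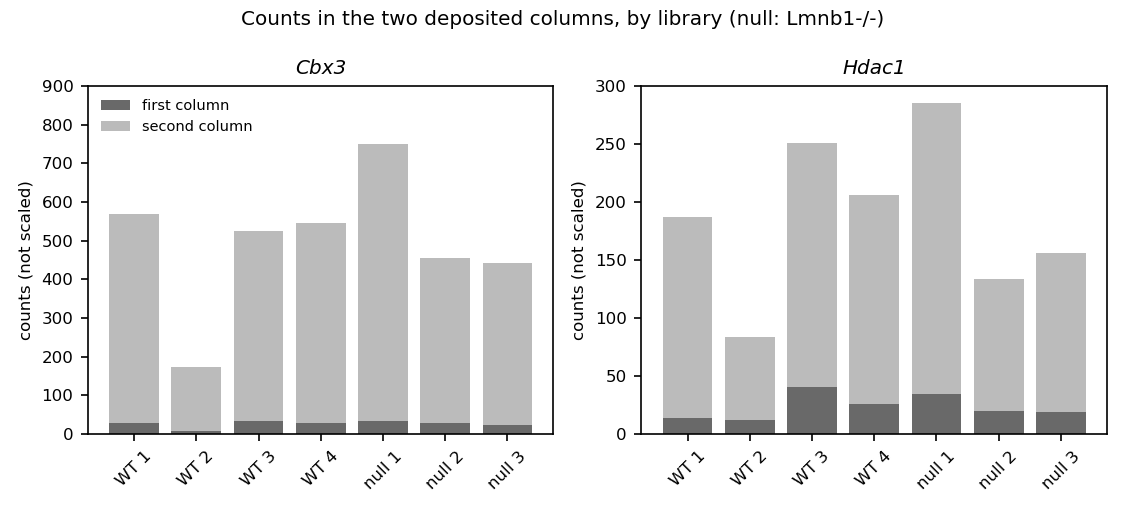
Counts of Cbx3 (left) and Hdac1 (right) in each library, not scaled for depth, split into the first deposited column (dark) and the second (light). The second column holds 94.7% of Cbx3 counts and 87.3% of Hdac1 counts over the 7 libraries.

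H3K9 methyltransferases, summed together with their partner Trim28, lay slightly higher in Lmnb1-/- explants, with no member past the test. The 6 genes together made 749, 747, 703 and 686 CPM in wild type and 810.0, 818 and 773 CPM in Lmnb1-/- libraries. The groups of sums did not overlap, with a log2 ratio of the means of 0.15, and Trim28 and Ehmt2 made up most of it. Trim28 encodes the corepressor KAP1, which recruits Setdb1 and HP1 to the sites of KRAB zinc finger proteins. It was at 332, 292, 290.0 and 287 CPM in wild type and 369, 363 and 321 CPM in Lmnb1-/- libraries. Wild type replicate 1 stood above Lmnb1-/- replicate 3, and the log2 fold change was 0.23 (SE 0.10, adjusted p = 0.350 by edgeR).

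Suv39h1 trimethylates H3K9 in pericentric heterochromatin and is X-linked. Its levels were 29.1, 15.5, 23.7 and 22.4 CPM in wild type and 30.9, 29.2 and 29.8 CPM in Lmnb1-/- libraries. The 3 Lmnb1-/- libraries lay close together. The lowest of them, replicate 2 at 29.17 CPM, was all but level with wild type replicate 1 at 29.14 CPM. The log2 fold change was 0.36 (SE 0.19, adjusted p = 0.446 by edgeR), and 0.60 within male libraries (adjusted p = 0.237 by edgeR). The other methyltransferases had log2 fold changes nearer 0. Ehmt1 and Ehmt2 encode GLP and G9a, which dimethylate H3K9 as a pair, and had log2 fold changes of 0.01 and 0.12. Ehmt1 varied little, with a mean of 109 ± 2.49 CPM (SD, n = 4) in wild type against 109.7 ± 4.26 CPM (SD, n = 3) in Lmnb1-/- explants. Setdb1, which silences endogenous retroviruses, was at 0.08, and the scarcer Suv39h2 at -0.07. Both turned sign within male libraries, to -0.012 and 0.14.

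DNA methylation genes overlapped between the groups as a sum, at 434 to 502 CPM in wild type and 443.7 to 501 CPM in Lmnb1-/- libraries. Dnmt1, the enzyme that copies methylation after replication, was at 245, 154, 153 and 187 CPM in wild type and 213, 169.9 and 183 CPM in Lmnb1-/- libraries. Wild type replicate 1 was highest and the groups overlapped throughout, for a log2 fold change of 0.03 (95% interval -0.32 to 0.38), or 0.14 within male libraries. Dnmt3a, which sets new methylation, was at 131, 181, 174 and 203 CPM in wild type and 135, 137 and 149 CPM in Lmnb1-/- libraries. Here wild type replicate 1 lay below every Lmnb1-/- library and the other 3 wild type libraries above them. The log2 fold change was -0.30 (SE 0.14, adjusted p = 0.366 by edgeR), and -0.46 within male libraries. Its relative Dnmt3b was nearly silent, at 2.61, 1.03, 3.39 and 2.95 CPM in wild type and 3.22, 1.68 and 1.54 CPM in Lmnb1-/- libraries. It had too few counts to be tested.

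Mbd2 encodes a reader of methylated DNA that brings in a deacetylase complex, and it was the most tightly grouped gene of the set. It stood at 64.4, 65.1, 63.6 and 64.9 CPM in wild type and 75.9, 76.8 and 79.6 CPM in Lmnb1-/- libraries. The groups lay apart with little spread inside either, yet the log2 fold change was only 0.26 (SE 0.12, adjusted p = 0.344 by edgeR). Counting noise at 63 to 236 reads per library is wider than the spread seen, and the test allows for it. Mbd2 and Hdac3 are on chromosome 18, as is Lmnb1, and the mixed background was not typed in these files. Hells, a chromatin remodeller that helps DNA methylation, was at 58.7, 52.7, 40.3 and 43.4 CPM in wild type and 73.6, 58.3 and 48.8 CPM in Lmnb1-/- libraries. The groups overlapped, and its log2 fold change was 0.33 (SE 0.18).

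PRC2 genes all had log2 fold changes above 0 over the 7 libraries, with no call, but Jarid2 turned to -0.10 within male libraries and with sex as a covariate. The complex consists of a methyltransferase, Ezh2 or Ezh1, with Suz12 and Eed, and Jarid2 as an accessory subunit. The 5 genes together made 246, 232, 252 and 272 CPM in wild type and 309.7, 303 and 291 CPM in Lmnb1-/- libraries, so that every Lmnb1-/- sum was above every wild type sum (log2 ratio of the means 0.26). Ezh2 had the highest fold change of the 36. It was at 37.8, 26.9, 47.4 and 32.9 CPM in wild type and 55.6, 56.1 and 43.7 CPM in Lmnb1-/- libraries. Lmnb1-/- replicate 3 was below wild type replicate 3, and the log2 fold change was 0.48 (SE 0.19, 95% interval 0.08 to 0.88, adjusted p = 0.278 by edgeR). Within male libraries the log2 fold change was 0.76 (adjusted p = 0.108 by edgeR).

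Eed, whose protein binds trimethylated H3K27 and stimulates the enzyme, was at 63.5, 57.9, 61.4 and 57.8 CPM in wild type and 87.1, 77.4 and 66.8 CPM in Lmnb1-/- libraries. All Lmnb1-/- libraries lay above all wild type libraries, and the log2 fold change was 0.36 (SE 0.13, adjusted p = 0.256 by edgeR). Suz12, the scaffold subunit, and Jarid2 had log2 fold changes of 0.18 and 0.12, and of 0.095 and -0.10 within male libraries. Ezh1, the paralogue that prevails in resting cells, was at 12.2, 16.5, 19.96 and 14.8 CPM in wild type and 15.1, 19.6 and 17.0 CPM in Lmnb1-/- libraries. Those ranges overlapped almost fully, and the log2 fold change was 0.11 (SE 0.23).

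The balance of the PRC2 enzymes can be read within each library, where no scaling enters. There were 3.11, 1.63, 2.38 and 2.23 Ezh2 counts for each Ezh1 count in wild type and 3.68, 2.86 and 2.58 in Lmnb1-/- libraries. Wild type replicate 1 had a higher ratio than Lmnb1-/- replicates 2 and 3. The log2 ratio was higher by 0.40 in Lmnb1-/- explants, which the exact two-sided permutation test over 35 divisions of the libraries did not separate (p = 0.229, where the smallest possible p is 0.0286). Per kilobase, Ezh2 was above Ezh1 in both groups, at 5.43 ± 1.30 against 2.13 ± 0.439 CPM per kb in wild type (SD, n = 4).

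PRC1 genes were lower as a sum in Lmnb1-/- libraries, with the largest drop in Cbx6, though 3 of the 8 tested had log2 fold changes above 0. The 10 genes together made 476, 470.1, 451 and 503 CPM in wild type and 406, 406 and 432 CPM in Lmnb1-/- libraries, a log2 ratio of the means of -0.20 with no overlap. Cbx6, Phc2 and Rnf2 provided most of these counts, but did not move alike. The mean of Cbx6 went from 124.9 CPM without the mutation to 90.5 CPM with it. That of Phc2 went from 147.6 to 133.3 CPM, and that of Rnf2 from 103.7 to 104.6 CPM. The lower sum thus leaned on Cbx6 and does not show a shift of the class as a whole. With library totals in place of TMM scaling the PRC1 sums did overlap, and the H3K9 and PRC2 sums did not. These sums are descriptions of classes drawn up with the data known, and carry no test. Separation of sums was not particular to these classes. Among the related and marker lists, the sums of cohesin, smooth muscle and fibroblast genes also lay apart, and the others overlapped.

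Cbx6 encodes a chromodomain subunit that can read methylated H3K27. It was at 116, 126, 124 and 134 CPM in wild type and 85.9, 86.9 and 98.7 CPM in Lmnb1-/- libraries. The highest Lmnb1-/- library was well below the lowest wild type library. Its log2 fold change was -0.47 (SE 0.11, 95% interval -0.71 to -0.22), a level 0.724 times that of wild type, and its adjusted p of 0.0807 by edgeR was the smallest of the set. It passed in 1 of the settings tried, on leaving out wild type replicate 1 (adjusted p = 0.0388 by edgeR), and otherwise ranged up to 0.314. Among the other chromodomain subunits, Cbx2 had a log2 fold change of 0.09 (SE 0.29) and Cbx8 one of 0.13 (SE 0.26). Within male libraries these were 0.56 and 0.30, with adjusted p = 0.461 for Cbx2 by edgeR. Cbx7 was hardly expressed, at 0 to 1.13 CPM over all libraries, and was not tested. Per kilobase Cbx6 was at 11.8 ± 0.680 CPM per kb in wild type (SD, n = 4), against 2.62 ± 0.936 for Cbx2 and 2.79 ± 0.356 for Cbx8.

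The ring finger proteins form the core of PRC1. Rnf2, the main H2A ubiquitin ligase, had a log2 fold change of 0.01 (95% interval -0.27 to 0.30), which turned to -0.16 within male libraries. It stood far above its paralogue Ring1 per kilobase, at 25.1 ± 3.80 against 4.73 ± 0.590 CPM per kb in wild type (SD, n = 4). Ring1 and Bmi1, a ring finger partner, had log2 fold changes of -0.29 and -0.28. The polyhomeotic subunits Phc1 and Phc2 were at -0.36 and -0.14, and Pcgf2, the relative of Bmi1, was at 0.514 to 9.30 CPM over all libraries and not tested.

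**Figure D4:**
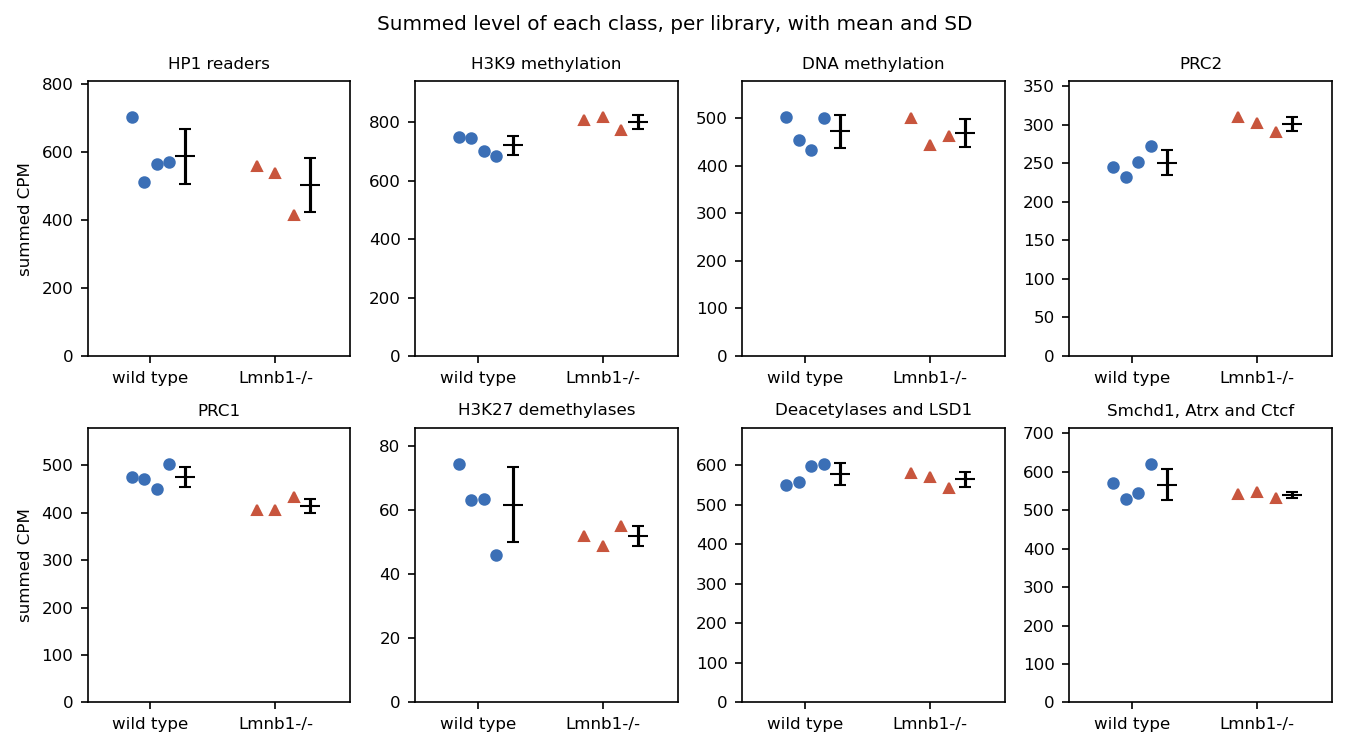
Summed CPM of each class of regulators in the wild type (circles) and Lmnb1-/- (triangles) libraries, with the mean and SD of each group beside them; axes start at 0. The groups lie apart for the H3K9 methylation, PRC2 and PRC1 classes and overlap for the other 5.

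The H3K27 demethylases remove the Polycomb mark. Kdm6a (UTX) is X-linked and one of the genes known to stay active on the silenced X chromosome of females. It was at 63.5 and 57.2 CPM in the female wild type replicates 1 and 3, at 34.1 and 39.2 CPM in the male replicates 2 and 4, and at 44.7, 42.6 and 43.2 CPM in the Lmnb1-/- libraries, all male. Levels were highest in both female libraries, so the sign of the comparison depends on them. The log2 fold change was -0.19 over all libraries (SE 0.20, adjusted p = 0.719 by edgeR) and 0.23 within male libraries (adjusted p = 0.554 by edgeR). Kdm6b (JMJD3), an inducible demethylase, was at 10.9, 28.9, 6.03 and 6.75 CPM in wild type and 7.07, 6.17 and 11.8 CPM in Lmnb1-/- libraries. Wild type replicate 2, the shallowest library, stood apart, and the log2 fold change of -0.47 (SE 0.53) was 0.09 without it and -0.93 within male libraries.

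The deacetylases remove histone acetylation within corepressor complexes. Hdac2 was at 159.6, 157, 189 and 173 CPM in wild type and 221, 227 and 199.9 CPM in Lmnb1-/- libraries. The Lmnb1-/- libraries all lay higher, and the log2 fold change was 0.34 (SE 0.11, 95% interval 0.11 to 0.57, adjusted p = 0.171 by edgeR). Its partner Hdac1 was another gene whose counts were mostly in the second column, 87.3% of them. With both columns added Hdac1 averaged 71.3 ± 4.34 CPM (SD, n = 4) in wild type against 67.5 ± 7.29 CPM (SD, n = 3) in Lmnb1-/- explants, and its log2 fold change was -0.08 (SE 0.12).

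Ncor1 encodes the scaffold that activates Hdac3. It was at 148, 165, 140.5 and 140.4 CPM in wild type and 119, 90.3 and 127 CPM in Lmnb1-/- libraries. All wild type libraries lay above all Lmnb1-/- libraries, with Lmnb1-/- replicate 2 lowest, and the log2 fold change was -0.39 (SE 0.13, adjusted p = 0.203 by edgeR). Hdac3 itself had a log2 fold change of -0.06 (95% interval -0.34 to 0.21). Kdm1a, encoding the H3K4 demethylase LSD1, was at -0.19.

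Atrx, Smchd1 and Ctcf act on chromatin structure beyond these complexes. Atrx deposits histone H3.3 in heterochromatin with Daxx and is X-linked. It was at 285, 315, 295 and 342 CPM in wild type and 269, 254 and 253 CPM in Lmnb1-/- libraries. The groups lay apart by a small margin, and the female replicates 1 and 3 were the lowest of the wild type libraries. The log2 fold change was -0.26 (SE 0.10, adjusted p = 0.287 by edgeR), and -0.35 within male libraries. Smchd1, needed to keep the inactive X chromosome silent, was at 0.19 with overlapping groups. Ctcf, the insulator protein, was at -0.10, with 61.1 CPM in Lmnb1-/- replicate 1 and 71.3 to 75.9 CPM in the other 6 libraries.

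Several of these genes are known to be expressed with DNA replication, and replication genes differed between the libraries. The 37 genes of a DNA replication list summed to 2720, 1664, 1821 and 2036 CPM in wild type replicates 1 to 4 and to 2887, 2641 and 2457 CPM in the Lmnb1-/- libraries. Wild type replicate 1 thus lay among the Lmnb1-/- libraries. Of the 37, 34 had log2 fold changes above 0 with a median of 0.32, against 5128 of 10775 tested genes and a median of -0.015. In edgeR 0 of 37 passed, where 0.705% of all tested genes did. An unadjusted p under 0.05 was found for 12 of the 37 (32.4%), against 13.6% of all tested genes. The smallest adjusted p was 0.0837 for Pcna, the replication clamp (log2 fold change 0.71), which has 68.2% of its counts in the second column. Wild type replicate 1 was also the highest wild type library for Dnmt1, Hells, Suv39h1, Trim28 and Cbx5, but not for Ezh2, where wild type replicate 3 was. Of these Cbx5 had a log2 fold change below 0, at -0.24. The same replicate 1 was highest for further members, such as Ehmt1, Phc2 and Smchd1, and lowest for others, such as Dnmt3a, Jarid2, Ring1, Atrx and Cbx6. The part of replication activity in the regulators' values was not tested.

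**Figure D5:**
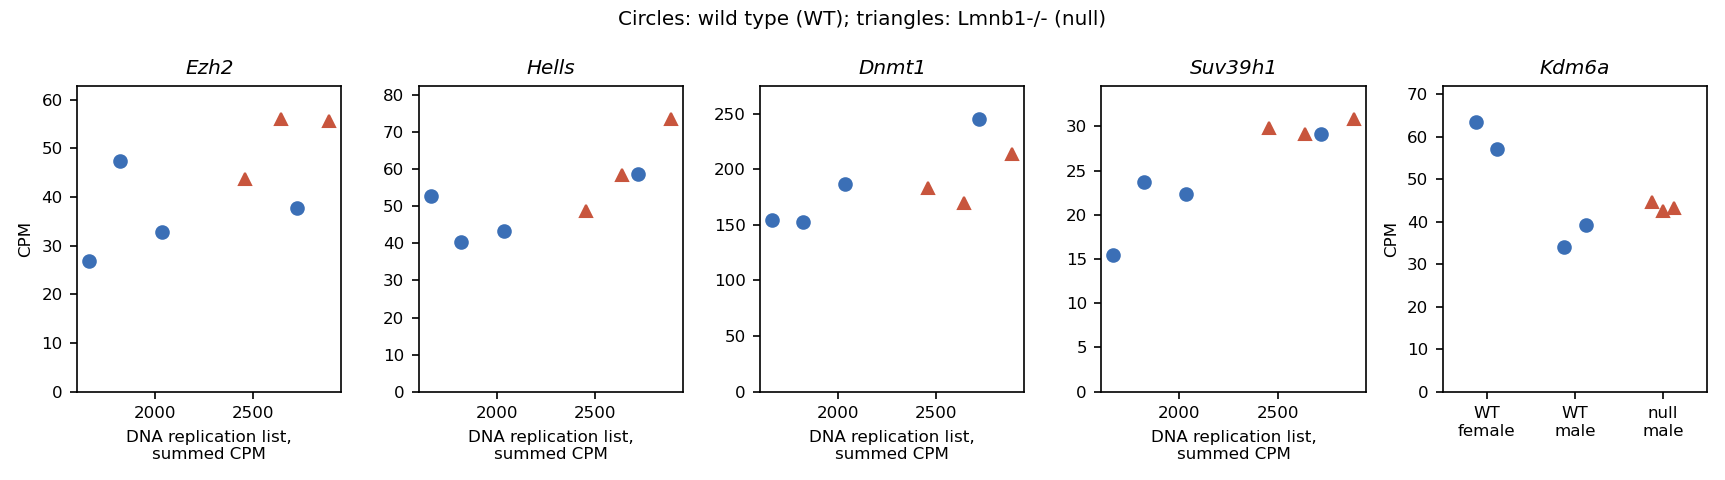
First 4 panels, CPM of Ezh2, Hells, Dnmt1 and Suv39h1 against the summed CPM of the DNA replication list in the same library (circles wild type, triangles Lmnb1-/-). Last panel, Kdm6a CPM by sex and genotype, where the female wild type libraries at 63.5 and 57.2 CPM lie above the 5 male libraries at 34.1 to 44.7 CPM.

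E2F factors switch on replication genes in the cell cycle, and their motif can be looked for in the promoters. RefSeq promoters of build GRCm38.p6, from 250 bases before to 50 bases after each start, matched 34 of the 39 members by symbol with 46 windows; Mbd2, Cbx2, Kdm6b, Hdac1 and Hdac3 had no entry. The 4 forms TTTCCCGC, TTTGGCGC, TTTCGCGC and TTTGCCGC were searched on both strands. A match was found in 6 of the 46 windows (13%), each in a different gene, against 2.26% of all 32851 promoters. Members' windows also held more CG pairs, with a median of 29 against 7 over all promoters, and the motifs contain CG. The matches are shown with 30 bases each, 5′ to 3′ on the gene's strand, with the match in capitals, to let the letters found be seen beside the values of these 6 genes.
Ezh2: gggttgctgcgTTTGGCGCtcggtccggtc
Dnmt1 (upstream): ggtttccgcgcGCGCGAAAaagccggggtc
Dnmt1 (downstream): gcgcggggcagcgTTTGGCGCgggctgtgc
Suv39h1: ggaaggccggcGCGGCAAAcgtgggggccg
Hells: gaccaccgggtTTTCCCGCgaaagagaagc
Suz12: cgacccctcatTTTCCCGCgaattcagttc
Cbx3: tggagccccgcTTTGGCGCgctccgagacg
The Ezh2 window is chr6:47595009-47595038 on the minus strand, with the match 4 bases into the transcript. The Dnmt1 windows are chr9:20952824-20952853 and chr9:20952574-20952603 on the minus strand, and that of Suv39h1 is chrX:8074407-8074436 on the minus strand. On the plus strand are Hells at chr19:38930917-38930946, Suz12 at chr11:79992876-79992905 and Cbx3 at chr6:51470437-51470466. The upstream Dnmt1 match and that of Suv39h1 read on the opposite strand. A match describes the letters only. The log2 fold changes of these 6 genes were 0.48 for Ezh2, 0.03 for Dnmt1, 0.36 for Suv39h1, 0.33 for Hells and 0.18 for Suz12. Cbx3 was at 0.10 in the first column and 0.17 with both. Members with a promoter entry and no match lay on both sides of 0, as with Eed at 0.36, Hdac2 at 0.34, Cbx6 at -0.47 and Ncor1 at -0.39. A link between the motif and these values was not tested.

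Other genes of the same pathways, from lists drawn up with earlier results known, gave no call either. Among other Polycomb genes 0 of 23 passed (median on the log2 scale 0.010). Those of smallest p were Phc3, Yaf2 and Scmh1 at -0.40, 0.26 and -0.73. Among other H3K9 and H4K20 genes 0 of 22 passed, with a median of -0.046. Atf7ip, the partner that stabilises Setdb1, averaged 38.3 ± 10.95 CPM (SD, n = 4) in wild type against 22.0 ± 3.93 CPM (SD, n = 3) in Lmnb1-/- explants. Its log2 fold change was -0.75 (SE 0.22), with adjusted p = 0.152 by edgeR, and Setdb2 and Zfp644 were at 0.75 and -0.28. Among other DNA methylation genes 0 of 13 passed, with Uhrf1, the Dnmt1 recruiter, at 0.55, Uhrf2 at 0.17 and Tet3 at -0.44. Of other deacetylase complex genes 0 of 28 passed, with Sap30, Chd3 and Hdac5 at 0.67, -0.33 and -0.33.

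Cohesin works with Ctcf, and of its 12 genes 6 had log2 fold changes above 0 and 6 below. Their sums lay apart, at 1403 to 1559 CPM in wild type and 1605 to 1671 CPM in Lmnb1-/- libraries. Stag2, a cohesin subunit, averaged 324 ± 5.54 CPM (SD, n = 4) in wild type against 418 ± 15.1 CPM (SD, n = 3) in Lmnb1-/- explants. Its groups did not overlap, and its log2 fold change was 0.37 (SE 0.09; adjusted p = 0.0898 by edgeR). It is X-linked in mice, and 0 of the 12 passed. Rad21 and Nipbl were at 0.25 and 0.24.

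Genes that this machinery is known to hold silent were mostly near the detection limit in both groups. Of 39 Hox genes, classic Polycomb targets, 21 had 0 counts in all 7 libraries and 30 had at most 10 counts in all. Their summed level was 35.1 to 55.4 CPM in wild type and 30.3 to 44.2 CPM in Lmnb1-/- libraries. The 2 with enough counts to be tested, Hoxb2 and Hoxd8, did not pass, at -0.59 and -0.00 on the log2 scale. Of 22 germline genes, which DNA methylation silences in body cells, 6 had 0 counts and 14 at most 10. They summed to 18.8 to 31.0 CPM in wild type and 30.8 to 39.1 CPM in Lmnb1-/- libraries, of which the germ cell helicase Ddx4 gave the largest share, at 11.4 ± 4.36 CPM (SD, n = 4) and 19.8 ± 5.05 CPM (SD, n = 3). Its log2 fold change of 0.84 did not pass (adjusted p = 0.247 by edgeR). In the shallowest library, wild type replicate 2, 3 counts made 3.10 CPM, and in the other 6 libraries 0.965 to 1.68 CPM. A lower level in genes already under these floors was not detectable at this depth.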

How the data were processed

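Per the labels, RNA of 7 explants was extracted with a PicoPure kit and made into TruSeq RNA v2 libraries. TopHat, edgeR and mm9 are listed, per the submitters' processing notes. Annotation and counting program are not given in the sources used here. The authors deposited 1 table per library with 2 unnamed columns of whole-number counts per gene; the first was used. The kit is not strand specific, so overlapping genes cannot be told apart. Rows that repeat a gene name (649) were kept apart.

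The 10775 genes that passed filterByExpr were scaled by TMM and tested with edgeR 4.0.16 (quasi-likelihood, robust, no covariate; limma 3.58.1, R 4.3.3) with Benjamini-Hochberg adjustment at 0.05. A positive log2 fold change means higher in Lmnb1-/-; SE is the fold change divided by the root of F, and 95% intervals use the fit's degrees of freedom. CPM uses TMM-adjusted totals; CPM per kb uses exon lengths from GENCODE (GRCm38). DESeq2 1.42.0 was an alternative. The procedure was tested on simulated counts. Members and lists were chosen with earlier results of these data known. Named with every library's value were the 8 members of smallest p, the HP1, Ezh and Dnmt genes, Suv39h1 and X-linked members; other members by fold change; of related lists, up to 3 of smallest p. Kdm6b and Hells were given in full after their values were seen. Replicates differed beyond sampling noise (chi-square per degree of freedom 2.32 to 8.39). The labels do not say whether replicates are separate embryos; p-values measure the spread between these libraries.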

Additional observations from a re-analysis of the deposited data

Results flagged for a closer look

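Trim28 in wild type replicate 1, at 332 CPM, stood apart from the other 3 wild type libraries, which lay between 287 and 292 CPM. Cbx3 in wild type replicate 2, at 8.27 CPM in the first count column, stood apart from the other 3, at 12.2 to 12.6 CPM, and rests on 8 counts. Chance flags about 1 in 20 groups, and 39 were looked at.

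Counts in the second column, which the comparisons do not use as their main measure, exceeded the 3 counts that a count of 0 allows in every library for 4 members. Over 7 libraries Cbx3 had 3276 such counts, Hdac1 1139, Bmi1 144 and Ncor1 75.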

How the results depend on the processing

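The count of 0 members past the threshold held with RLE size factors, library totals, no count filter, DESeq2, sex as a covariate, male libraries only, both columns added and the replicate block. With DESeq2 the members left without an adjusted p could not be called. Leaving out each library in turn gave 0 to 1 members, the 1 being Cbx6 without wild type replicate 1. Of all genes, 76 passed, and 180 did with no count filter, 175 with DESeq2, 38 with sex as a covariate and 44 with both columns, and 3 to 279 on leaving out a library (3 without Lmnb1-/- replicate 2, 4 without Lmnb1-/- replicate 1 or wild type replicate 3, 13 without Lmnb1-/- replicate 3, 28 and 40 without wild type replicates 4 and 2, 279 without wild type replicate 1). The causes were not tested. The members' median of 0.0096 was 0.055 with library totals, where the median of all genes was 0.029, and -0.020 to 0.050 on leaving out a library. The log2 ratio of Ezh2 to Ezh1, 0.40, ranged from 0.24 to 0.55 on leaving out a library and was 0.66 within male libraries.

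Some signs turned, among them that of Kdm6b without wild type replicate 2, whose -0.47 was the lowest of the 36, and none was past the threshold. With library totals Cbx1 was 0.012. With the replicate block Hdac1 was 0.0072. With sex as a covariate Cbx1 was 0.018, Suv39h2 0.14, Setdb1 -0.011, Jarid2 -0.10, Rnf2 -0.16 and Kdm6a 0.23, and within male libraries they were 0.017, 0.14, -0.012, -0.10, -0.16 and 0.23. Leaving out a library, ranges that crossed 0 were Suv39h2 -0.36 to 0.26, Ezh1 -0.011 to 0.26, Jarid2 -0.028 to 0.27, Rnf2 -0.051 to 0.13, Dnmt1 -0.074 to 0.20, Cbx2 -0.053 to 0.23, Kdm6b -0.77 to 0.087, Cbx1 -0.29 to 0.10, Ehmt1 -0.011 to 0.039, Setdb1 -0.010 to 0.18, Hdac1 -0.28 to 0.17, Cbx3 -0.035 to 0.23 and Hdac3 -0.13 to 0.017. Of 252 such values, 23 turned sign.

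Replicate numbers are shared by the groups, but deviations of same-numbered libraries correlated at 0.26, -0.16 and -0.09, so the numbers were not taken as pairs. With the replicate block 77 genes and 0 members passed.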
